A study of Mus musculus with 6 samples.

Results

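The cells described here are Ly6c2+ Ccr2+ classical monocytes of the lymph node with a capped level of 5 interferon-induced transcripts. They were chosen cell by cell from raw counts of unique molecular identifiers (UMIs, each marking 1 captured RNA molecule). Kept cells had 500 or more UMIs from 300 or more genes, with no more than 10% of them mitochondrial. A kept cell became a member with at least 2 UMIs of Ly6c2 and at least 1 of Ccr2, fewer than 3 of C1qa, none of Flt3, Cd3e, Cd79a, Ncr1 or Retnlg, and a summed Ifit1, Ifit2, Ifit3, Rsad2 and Cxcl10 level below 10 per 10000 UMIs. These limits gave 1478 members among 24721 kept cells of 3 libraries, and 53259 kept cells stood in all 6 libraries of the series. The choice used expression, so the levels of those genes are a description of the gate, and no gene of these cells was tested against other cells.

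All mice were C57Bl/6. Cells came from inguinal and axillary lymph nodes, digested with collagenase, enriched with magnetic beads against CD11b and CD11c and sequenced with the Chromium GEM-X Single Cell 3' v4 kit. The 3 arms were tumour-free (naive) mice, mice bearing YUMM1.7 and mice bearing YUMMER1.7. YUMM1.7 is a transplantable mouse melanoma line driven by engineered mutations, and YUMMER1.7 is its ultraviolet-irradiated derivative with more mutations, so each tumour arm stands for 1 line. Nodes of several mice were pooled, each arm was 1 library, and the mice of a pool cannot be told apart. No test between arms was therefore possible and no p-value is given. Intervals are at 95% and reflect counting error alone, and both tumour libraries were set against the same naive library. In the companion libraries depleted of CD45+ cells the gate found 15 (naive), 15 (YUMM1.7) and 12 (YUMMER1.7) cells, and these were not used further.

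Classical monocytes leave the bone marrow through the chemokine receptor Ccr2, circulate in the blood and enter inflamed or draining tissue, where they can become macrophages or antigen-presenting cells. In the mouse they carry the surface antigen Ly6C, whose gene is Ly6c2, and the growth factor receptor Csf1r. Some of them share genes with neutrophils and others share genes with dendritic cells, and these forms are known as neutrophil-like and dendritic-like monocytes.

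In the order naive, YUMM1.7, YUMMER1.7, used throughout, the libraries held 11372, 7806 and 7144 barcodes and 10467, 7453 and 6801 kept cells. Members had a median of 8961, 10409 and 13540 UMIs, against 4196.5, 5314 and 5335 in B cells of the same libraries, and 2454861, 6557997 and 8309440 UMIs in all. Depth thus moved with the arm. Levels are given as CPM, the UMIs of a gene summed over the members and scaled to 1000000 UMIs. Between 5 and 25 barcodes were shared by a pair of these libraries, and among members 1 barcode was shared, by naive and YUMMER1.7. B cells, chosen by at least 2 Cd79a and 1 Ms4a1 UMIs with no Cd3e, served as the reference for free RNA of the suspension. Marker genes of other cell types were checked as sums. Conventional dendritic cell genes stood at 592, 582 and 479 CPM in members and at 545, 630 and 524 CPM in other kept cells. Most of that sum in members was Sirpa, at 527, 553 and 460 CPM. Every other gene of the sum was lower in members than in other kept cells of each library. Zbtb46, for example, stood at 10.6, 6.40 and 5.90 CPM against 130, 116 and 83.6 CPM. Non-classical monocyte genes stood at 465, 614 and 576 CPM against 241, 243 and 279 CPM, so that sum was not lower in members. Natural killer genes summed to 59.5, 15.9 and 3.49 CPM, T cell genes to 55.8, 11.9 and 10.1 CPM, and melanoma genes to 0.407, 0.457 and 0.842 CPM. B cell genes summed to 154, 821 and 117 CPM, and in the YUMM1.7 library 4395 of the 4626 Igkc UMIs lay in 1 cell. Neutrophil genes are given beside the granule genes, with which they share S100a8 and S100a9.

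Gated monocytes made up a larger share of the nodes of both tumour arms. They were 263 of 10467 kept cells in the naive library (2.51%, Clopper-Pearson 2.22 to 2.83), 617 of 7453 in YUMM1.7 (8.28%, 7.66 to 8.93) and 598 of 6801 in YUMMER1.7 (8.79%, 8.13 to 9.49). The share was 3.29-fold (2.85 to 3.82) that of naive in YUMM1.7 and 3.50-fold (3.02 to 4.06) in YUMMER1.7. The ratio of the tumour libraries was 1.06 (0.948 to 1.19), so no difference between them was detectable beyond counting error. Bead enrichment sets what a share is a share of, and the tumour libraries also held fewer lymphocytes. Over kept cells without Cd3e, Cd79a or Ncr1 UMIs the shares were 3.59%, 10.2% and 11.3%, and the folds over naive were 2.83 and 3.16. A gate by UMI number also admits more cells at greater depth. With every cell thinned to 3000 UMIs before the limits the folds were 2.51 and 2.34, and YUMMER1.7 stood at 0.934 times YUMM1.7 (0.807 to 1.08).

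Neighbouring monocytes were also more frequent in the tumour arms. Non-classical monocytes, the patrolling Ly6c2-low cells, were 3.03%, 5.04% and 5.90% of kept cells, which is 1.67-fold and 1.95-fold naive. They had at most 1 Ly6c2 UMI, a UMI of at least 2 of Ace, Treml4, Spn, Eno3 and Adgre4, and the same exclusions as members. Their median was 8275, 8851 and 11189 UMIs, and their share was not recomputed at equal depth. The interferon limit removed 42, 168 and 102 cells from the gate, or 13.8%, 21.4% and 14.6% of the cells that met every other limit. That share was 1.55-fold higher in YUMM1.7 than in naive (1.10 to 2.23) and 0.681 times as high in YUMMER1.7 as in YUMM1.7 (0.527 to 0.876). The members just inside the interferon limit, at 5 to 10 per 10000 UMIs, were 31, 90 and 63 cells, and those just outside, at 10 to 15, were 12, 47 and 32 cells. F13a1, a marker of the label that the rule did not use, stood at 249, 242 and 100 CPM just inside and at 321, 262 and 90.8 CPM just outside. Members with 2 Ly6c2 UMIs held 213, 194 and 153 CPM of Vcan, and cells left out with 1 Ly6c2 UMI held 68.6, 157 and 274 CPM. The limit on Ly6c2 did not separate high from low Vcan in the YUMMER1.7 library.

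**Figure D1:**
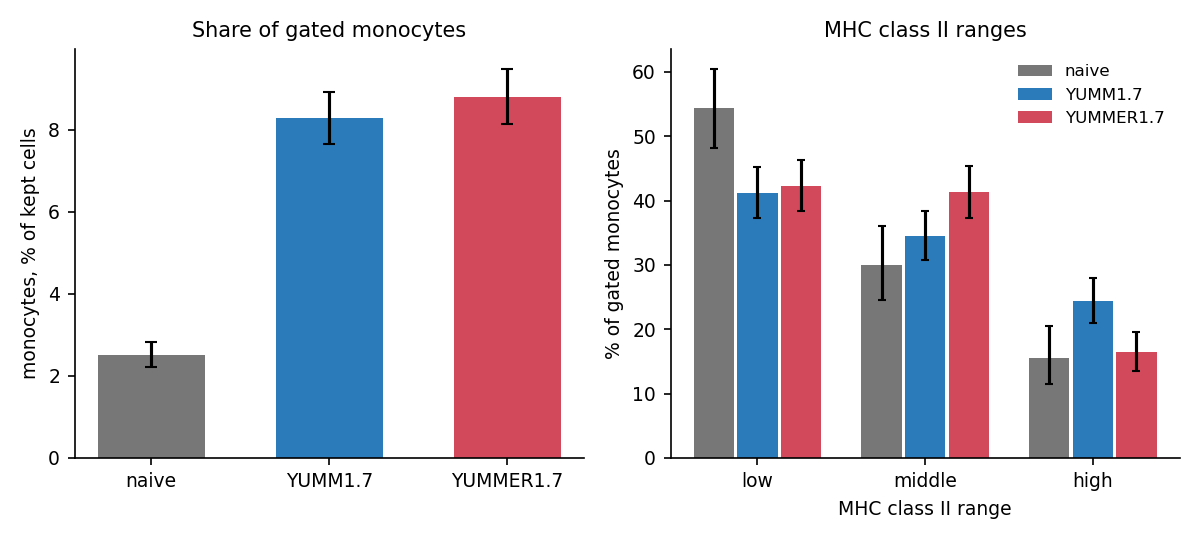
Left, gated monocytes as a percentage of kept cells in each library; right, the gated monocytes of each library split into low, middle and high ranges of summed MHC class II UMIs. Bars are shares and lines are 95% Clopper-Pearson intervals; the share stands at 2.51% in naive and at 8.28% and 8.79% in the tumour libraries, and the high range is widest in YUMM1.7.

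The label was checked against its 5 markers. Ly6c2, a rule gene that shares sequence with its close copy Ly6c1, stood at 1273, 1123 and 994 CPM, and Ccr2, also a rule gene, at 1044, 880 and 628 CPM. Chil3, a secreted chitinase-like protein of classical monocytes, stood at 645, 613 and 995 CPM. F13a1, the coagulation factor XIII A chain (chr13:36867178-37050244), stood at 778, 445 and 335 CPM. Vcan, a matrix proteoglycan, stood at 472, 347 and 471 CPM. In B cells none of these last 3 exceeded 47.6 CPM, the value of F13a1 in YUMMER1.7. Csf1r, the receptor for the growth factor that sustains monocytes, stood at 383, 443 and 397 CPM, against 26.2 to 33.2 CPM in B cells. At full depth Adgre4, a non-classical marker, was found in 62.0%, 84.1% and 78.4% of members and Treml4 in 31.6%, 53.3% and 61.4%. F13a1 was found in 72.2%, 64.2% and 54.8%, and Ace, Spn and Eno3 in fewer members than F13a1 in each library. Listed genes of monocyte identity summed to 32117, 34329 and 33932 CPM in members and to 12730, 19796 and 22267 CPM in non-classical monocytes. Against B cells and by that sum the label holds for the members summed. It did not hold for each cell: at 3000 UMIs a UMI of Vcan was found in 39.0%, 35.7% and 41.2% of members, and these markers were concentrated in the members with little MHC class II, as described next.

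MHC class II genes, which encode the molecules that present antigen to CD4 T cells, varied widely from member to member. Among genes at 3000 UMIs per cell the 6 ranked first by the lowest variance over mean of the 3 libraries were Cd74, H2-Eb1, H2-Aa, H2-Ab1, the lysozyme gene Lyz2 and the chemokine gene Ccl4. Cd74 encodes the invariant chain that escorts MHC class II, and its variance over mean was 23.1, 22.2 and 20.4. Members were split at 20 and 300 summed UMIs of H2-Aa, H2-Ab1, H2-Eb1 and Cd74 per 10000, limits chosen after the values were seen. These are ranges of a continuous score and not cell types. Near the lower limit, from 15 to 25, lay 7, 38 and 22 cells, and near the upper limit, from 250 to 350, lay 16, 54 and 60 cells.

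The low range held 54.4%, 41.2% and 42.3% of members, the middle range 30.04%, 34.5% and 41.3%, and the high range 15.6%, 24.3% and 16.4%. The low share was 0.757 (0.614 to 0.936) and 0.778 (0.631 to 0.962) times that of naive in YUMM1.7 and YUMMER1.7. The high share was 1.56-fold naive in YUMM1.7 (1.10 to 2.26) and 1.05-fold in YUMMER1.7 (0.723 to 1.55). The YUMM1.7 library thus held more of its members at high MHC class II, and the YUMMER1.7 library more at the middle.

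The markers of the label were lower at higher score within each library. Vcan stood at 810, 632 and 900 CPM in the low range and at 9.86, 8.46 and 13.9 CPM in the high range. Fn1, the matrix protein fibronectin, stood at 1099, 816 and 693 CPM in the low range and at 17.3, 6.04 and 9.25 CPM in the high range. A Vcan UMI was found in 74.8%, 81.5% and 86.6% of low-range members and in 4.88%, 8% and 12.2% of high-range members. F13a1 had a median of 8.78, 4.79 and 3.43 UMIs per 10000 over low-range cells and of 0 over high-range cells of each library. Most high-range cells thus showed none of F13a1 and Vcan, and a Chil3 UMI was found in 17.1%, 34.7% and 34.7% of them, so for this range the data go partly against the label. Csf1r was found in 88.8% to 98.8% of cells in every range and library, with medians of 3.01 to 4.48 UMIs per 10000. Zbtb46, a transcription factor of conventional dendritic cells, was found in 2.77% to 12.2% of cells over the ranges and libraries.

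Other genes were higher in the high range. Ciita, the master regulator of MHC class II transcription, stood at 11.7, 35.7 and 12.1 CPM in the low range and at 303, 311 and 254 CPM in the high range. Ly6a, which encodes Sca-1, stood at 27.2, 21.8 and 47.7 CPM in the low range and at 306, 371 and 746 CPM in the high range. Pltp, a phospholipid transfer protein, stood at 18.6, 21.1 and 14.2 CPM against 296, 204 and 246 CPM. Spon1, a secreted matrix protein named again below, stood at 18.6, 73.7 and 66.6 CPM against 178, 385 and 527 CPM. Every one of these genes was low in the low range and high in the high range of all 3 libraries, and the ranges were defined on cells of the same libraries, so the differences are a description.

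**Figure D2:**
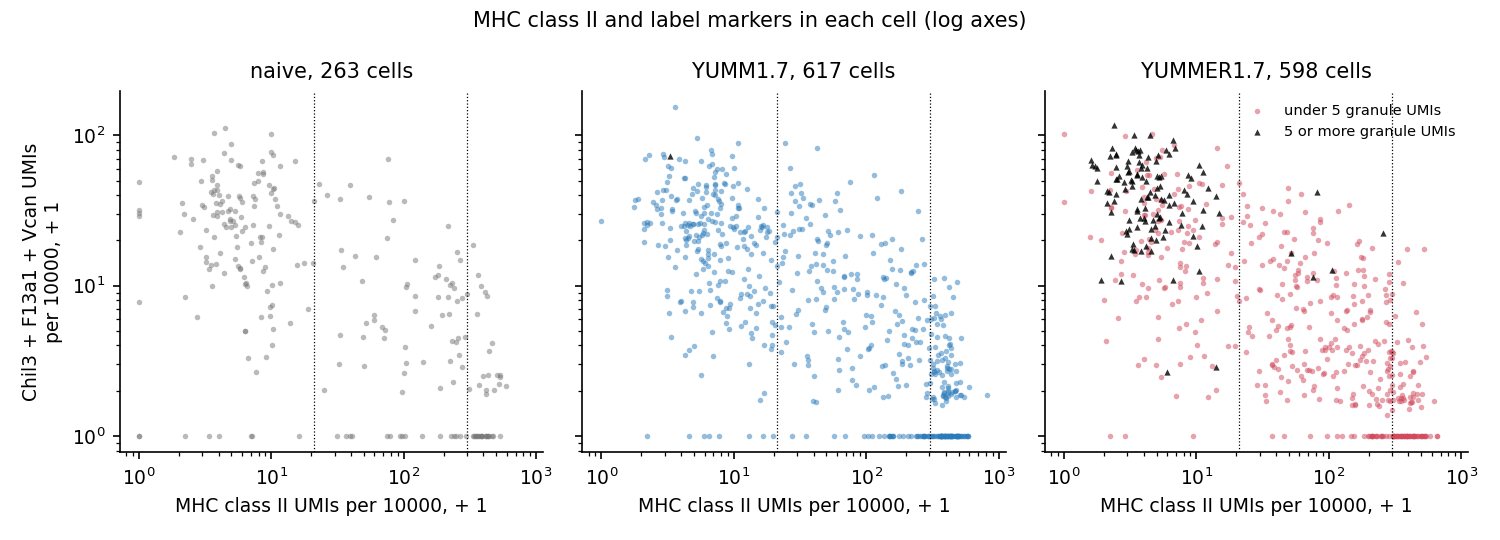
Each point is 1 gated monocyte; the x axis gives summed MHC class II UMIs per 10000 plus 1 and the y axis the sum of Chil3, F13a1 and Vcan UMIs per 10000 plus 1, both on log axes, with dotted lines at 20 and 300. In each library the marker sum is high at the left and near 0 at the right, and the black triangles, cells with 5 or more granule-gene UMIs, gather at the upper left of the YUMMER1.7 panel.

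Between arms a gene was counted as different at a CPM ratio of at least 1.5, among genes with at least 50 UMIs in the 2 libraries together. In YUMM1.7 against naive 486 of 8848 genes (5.49%) were higher and 643 (7.27%) lower. In YUMMER1.7 against naive 860 of 9225 genes (9.32%) were higher and 886 (9.6%) lower. Between YUMMER1.7 and YUMM1.7, 459 of 9733 genes (4.72%) were higher and 388 (3.99%) lower in YUMMER1.7. The median log2 ratio over all genes tested was 0.0046, -0.02 and -0.01 in these comparisons. Against naive, 293 of 8772 genes (3.34%) were higher in both tumour libraries and 455 (5.19%) lower in both. Counts of listed genes below are read beside the shares of each comparison, and a count near its share says nothing about the list. Genes were named by the bound of the interval nearest to no difference, in the weaker of the tumour libraries.

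Saa3 led the genes that were higher in both tumour arms. It encodes a serum amyloid A protein that macrophages and other cells make in the acute-phase response, and it lies at chr7:46711998-46715700 on the minus strand (mm10). It stood at 8.55 CPM in naive (5.30 to 13.1, from 21 UMIs), at 77.0 CPM in YUMM1.7 (70.4 to 84.0) and at 321 CPM in YUMMER1.7 (309 to 334), so the 3 libraries did not overlap. The log2 ratio to naive was 3.17 (2.54 to 3.87) and 5.23 (4.62 to 5.93). B cells of the same libraries held 0.240, 7.01 and 3.78 CPM. A single YUMM1.7 cell carried 187 of the 505 UMIs of its library, and at 3000 UMIs per cell Saa3 was found in 1.54%, 4.63% and 21.4% of members, against 0.171%, 0.503% and 0.926% of B cells. With cells thinned before the limits the YUMM1.7 ratio was 1.45. Among the ranges Saa3 was most abundant at low MHC class II, with 14.8, 128 and 554 CPM. In the interferon-high cells of the gate it stood at 114, 60.9 and 368 CPM, and in non-classical monocytes at 0.349, 70.5 and 189 CPM.

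The promoters of Saa3, of Lcn2 and of Prtn3 are shown because the transcripts of these 3 genes recur in the description of the YUMMER1.7 members below. Wfdc21, which led the genes higher in YUMMER1.7 than in YUMM1.7, had no window. Lcn2 was not among the genes named from the comparisons of arms. Lcn2 encodes the iron-chelator-binding protein lipocalin 2, and Prtn3 the granule protease proteinase 3. Each window runs from 250 bases before to 50 bases after the start annotated by RefSeq (GRCm38.p6), 5′ to 3′ on the gene's strand, with C/EBP and interferon motif matches in capitals.
Saa3: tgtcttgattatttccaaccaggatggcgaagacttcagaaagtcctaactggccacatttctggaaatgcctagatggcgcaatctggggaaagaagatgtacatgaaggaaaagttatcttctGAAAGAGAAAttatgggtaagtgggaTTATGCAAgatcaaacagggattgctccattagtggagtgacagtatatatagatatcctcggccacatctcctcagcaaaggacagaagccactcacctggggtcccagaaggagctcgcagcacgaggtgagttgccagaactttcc
Lcn2: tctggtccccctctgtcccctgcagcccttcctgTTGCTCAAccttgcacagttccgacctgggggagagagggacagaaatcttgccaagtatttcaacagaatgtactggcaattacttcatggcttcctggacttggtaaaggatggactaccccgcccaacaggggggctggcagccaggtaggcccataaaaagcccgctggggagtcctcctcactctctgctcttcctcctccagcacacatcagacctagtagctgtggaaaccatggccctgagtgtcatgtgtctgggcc
Prtn3: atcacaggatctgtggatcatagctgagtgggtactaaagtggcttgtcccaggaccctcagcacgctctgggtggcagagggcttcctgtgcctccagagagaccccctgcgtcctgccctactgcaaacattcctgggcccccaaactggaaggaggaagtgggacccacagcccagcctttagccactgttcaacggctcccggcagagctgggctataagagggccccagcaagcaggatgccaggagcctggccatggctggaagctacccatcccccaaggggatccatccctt
The Saa3 window is chr7:46715627-46715926 on the minus strand. It holds the C/EBP motif TTGCNNAA at -99 to -92, on the opposite strand, and the interferon motif, GAAA and GAAA with any 2 bases between, at -125 to -116, counted from the start. The Lcn2 window is chr2:32387690-32387989 on the minus strand and holds the C/EBP motif at -216 to -209. The Prtn3 window is chr10:79879417-79879716 on the plus strand and holds neither motif. Searched on both strands, the C/EBP motif was found in 10.8% of 32851 RefSeq promoter windows of this length and the interferon motif in 3.44%. A match is a description of letters and not of binding, and 21 of the 27 genes named from the comparisons of arms had a window.

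The other 7 genes that led in both tumour arms were of mixed function. Spon1, which encodes the matrix protein F-spondin (chr7:113765998-114043370), stood at 84.7, 209 and 253 CPM, with log2 ratios to naive of 1.30 (1.09 to 1.52) and 1.58 (1.37 to 1.79). Within each MHC class II range it was also higher in both tumour libraries, by log2 0.71 to 1.98. Spon1 was higher in the tumour libraries outside the members as well. It stood at 5.05, 34.3 and 43.8 CPM in B cells and at 38.0, 161 and 237 CPM in non-classical monocytes. All other kept cells held 18.1, 90.1 and 138 CPM, and the part of free RNA was not tested. F11r encodes the junctional adhesion molecule JAM-A, which leukocytes use to cross endothelium (chr1:171437535-171464603). It stood at 23.6, 57.5 and 102 CPM, with log2 ratios of 1.28 (0.88 to 1.71) and 2.11 (1.73 to 2.52). Mmp14, a membrane-anchored protease that cuts collagen, stood at 30.6, 71.1 and 68.1 CPM, or log2 1.22 and 1.16.

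Pla2g7, the enzyme that inactivates platelet-activating factor, stood at 176, 339 and 406 CPM, or log2 0.94 (0.79 to 1.09) and 1.202 (1.06 to 1.35). Pilra, an inhibitory paired immunoglobulin-like receptor, stood at 37.1, 79.3 and 104 CPM, and Pdk3, a kinase that restrains pyruvate dehydrogenase, at 52.1, 116 and 134 CPM. Hspa1a, the inducible heat shock protein Hsp70, stood at 112, 230 and 229 CPM, and in B cells at 45.7, 71.0 and 129 CPM. Hspa1a and its neighbour Hspa1b are near-identical copies whose reads may be split between them. The gene of the identity list past the fold upward in both arms was Plac8, a small cysteine-rich protein of monocytes, at 4263, 6591 and 8013 CPM. In these genes the naive library was the lowest of the 3, and in Hspa1a and Mmp14 the tumour libraries differed from each other by less than counting error.

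**Figure D3:**
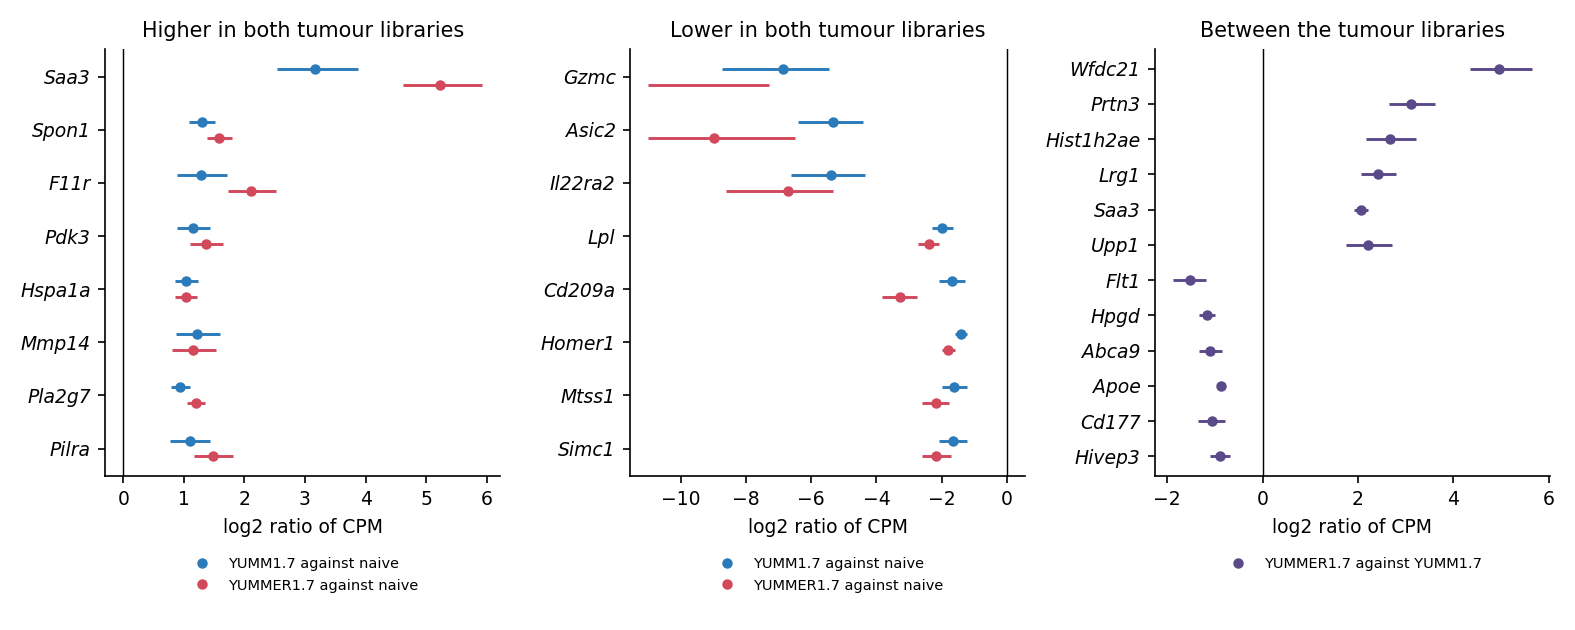
Log2 ratios of CPM for the named genes, with 95% intervals for counting error; the left and middle panels set each tumour library against naive and the right panel sets YUMMER1.7 against YUMM1.7, with no point where a library had no UMI and intervals ended at the panel edge. Saa3 lies farthest to the right against naive, at 3.17 and 5.23, and Wfdc21 between the tumour libraries, at 4.97.

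Among the genes lower in both tumour arms, the first 3 by the rule rested on single naive cells. All 173 UMIs of Gzmc, a granzyme of cytotoxic lymphocytes, lay in 1 naive member. So did 148 of 150 UMIs of Asic2, an acid-sensing ion channel, and 110 of 125 UMIs of Il22ra2, the soluble receptor that binds interleukin 22. Lpl, the lipoprotein lipase (chr8:68880491-68907448), stood at 86.0 CPM in naive (74.7 to 98.4), at 21.8 in YUMM1.7 (18.4 to 25.7) and at 16.2 in YUMMER1.7 (13.6 to 19.2), or log2 -1.98 and -2.40. A single naive cell carried 52 of its 211 naive UMIs, and the ratios without the highest 2% of cells of each library were -2.67 and -3.63. Homer1, a scaffold protein of signalling complexes, stood at 194, 72.4 and 56.0 CPM, or log2 -1.42 and -1.79, and in B cells at 88.7, 48.6 and 37.8 CPM. Cd209a, a lectin of dendritic-like monocytes, stood at 47.7, 14.9 and 4.93 CPM in members and at 34.1, 18.5 and 1.48 CPM in B cells. Mtss1, an actin and membrane regulator, and Simc1, a SUMO-binding protein, were lower in both tumour libraries too (48.9, 16.01 and 10.7 CPM, and 41.1, 13.1 and 9.15 CPM), and neither exceeded its B-cell level in any library. For Homer1 and Cd209a the B-cell levels moved the same way as those of the members, and the part of free RNA was not tested.

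Genes of monocyte identity did not move together. Of 20 listed genes 1 was higher and 3 lower in YUMM1.7 than in naive, and 4 were higher and 4 lower in YUMMER1.7, with median log2 ratios of -0.06 and 0.05. F13a1 had log2 ratios of -0.81 (-0.89 to -0.72) and -1.21 (-1.30 to -1.13), and in the low range alone of -0.70 and -0.93. Fn1 stood at 628, 384 and 348 CPM, or log2 -0.71 and -0.85, and in the low range -0.43 and -0.66. Hp, the haemoglobin-binding haptoglobin, stood at 293, 350 and 566 CPM. Cd44, a hyaluronan receptor of the adhesion list, stood at 1221, 689 and 797 CPM, or log2 -0.83 and -0.62. F13a1, Fn1 and Cd44 were thus highest in the naive library and Hp and Plac8 highest in YUMMER1.7.

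Of 19 tested growth factor receptors and transcription factors of monocytes none was past the fold upward and 2 and 3 were lower in YUMM1.7 and YUMMER1.7, with medians of -0.22 in both. Maf, a transcription factor of macrophages, stood at 112, 60.1 and 43.6 CPM. Spi1, which encodes the myeloid master regulator PU.1, stood at 521, 589 and 609 CPM, within the fold. Of 21 genes of monocyte-to-macrophage change 6 were lower and 1 higher in YUMM1.7, and 8 lower and 2 higher in YUMMER1.7. Mrc1, the mannose receptor, stood at 32.2, 16.9 and 13.4 CPM, and Mertk, a receptor for dying cells, at 13.9, 6.86 and 5.54 CPM. The medians of that list were -0.17 in both arms.

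Chemokine genes differed one by one. Of 22 tested inflammatory cytokines and chemokines 8 were lower and 4 higher in YUMM1.7, and of 23 tested 5 were lower and 3 higher in YUMMER1.7. Ccl6 and Ccl9, chemokines that bind the receptor Ccr1, stood at 442, 276 and 248 CPM and at 299, 142 and 191 CPM. Ccr1 itself stood at 97.4, 33.2 and 61.3 CPM. Il1b, the gene of interleukin 1 beta, stood at 1807, 1974 and 1898 CPM, within the fold. Il6 stood at 18.7, 6.10 and 4.81 CPM, and Il10, an anti-inflammatory cytokine of the suppressive list, at 19.6, 7.62 and 6.02 CPM, each from 40 to 50 UMIs a library. The list median in YUMM1.7 was -0.30, and it was positive under 3 of the alternative settings given in the closing section. Arg1 and Nos2, enzymes that mark suppressive and inflammatory macrophages, had at most 2 UMIs in any library.

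Immediate early genes respond within minutes to stimulation or to tissue digestion, and more of them were lower than higher in both tumour arms. Of 29 tested 8 were lower and 3 higher in YUMM1.7, and 8 lower and 4 higher in YUMMER1.7, with medians of -0.30 and -0.33. Nr4a2, an orphan nuclear receptor, stood at 479, 238 and 200 CPM, or log2 -1.01 (-1.12 to -0.90) and -1.26 (-1.37 to -1.15). Egr1, a zinc-finger factor induced by growth signals, stood at 64.8, 21.7 and 22.3 CPM, and Jdp2, a repressor of AP-1, at 89.2, 31.9 and 35.7 CPM. Socs3, a feedback inhibitor of cytokine signalling on the same list, was higher, at 41.6, 63.0 and 99.7 CPM. The sum of the list stood at 11211, 9351 and 9153 CPM in members and at 5629, 4651 and 5046 CPM in B cells. The sum was thus lower in B cells of the tumour libraries as well. In non-classical monocytes it stood at 8614, 8958 and 9238 CPM and in gated cells with 3 or more C1qa UMIs at 6644, 7374 and 8130 CPM, where naive was the lowest library. By MHC class II range the list had 13 genes lower and 2 higher in YUMM1.7, and 11 lower and 3 higher in YUMMER1.7, of 28 tested in the low range. In the middle range 3 were lower and 3 higher, and 5 lower and 6 higher, and in the high range 5 were lower and 3 higher, and 5 lower and 6 higher. Over all genes tested, 9.59% and 11.7% were lower in the low range, 6.01% and 9.95% in the middle and 7.89% and 12.5% in the high range. The shares higher were 8.26% and 13.3%, 6.76% and 9.52%, and 9.16% and 10.1%. The lower genes of the list thus exceeded the share over all genes most in the low range. The part of tissue handling in the difference was not tested.

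Interferon genes outside those that set the limit summed to 9467, 10878 and 10475 CPM in members and to 2593, 4447 and 5133 CPM in other kept cells. Of 38 tested type I interferon genes 4 were higher in YUMM1.7 and of 39 tested 4 in YUMMER1.7. Over all genes tested 5.49% and 9.32% were higher, so the YUMMER1.7 count lay near its share. None of the list was lower, against 7.27% and 9.6% of all genes, and the medians were 0.23 and 0.18. Ifi27l2a, an interferon-induced mitochondrial protein, stood at 1541, 2341 and 2079 CPM, Isg15, a ubiquitin-like modifier, at 229, 273 and 315 CPM, and Irf7, a factor that amplifies the response, at 169, 216 and 222 CPM. The rule capped related genes in these cells, so the levels are those left under the cap. Of 18 MHC class I genes Psmb8 and Psmb9, subunits of the immunoproteasome, were higher past the fold in YUMMER1.7, near the share of 9.32%. Psmb8 stood at 300, 414 and 469 CPM. Of 10 MHC class II genes Ciita and H2-Oa were higher in YUMM1.7 and none of 9 tested in YUMMER1.7, with medians of 0.39 and 0.09. H2-Ab1 stood at 1840, 2550 and 2018 CPM, and within the high range the list medians were 0.04 and -0.04, close to 0, while the share of members in that range differed.

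Cd274, which encodes the checkpoint ligand PD-L1, stood at 87.2, 146 and 172 CPM, or log2 0.74 (0.52 to 0.96) and 0.98 (0.77 to 1.19). B cells, which also carry it, held 188 to 193 CPM in each library. Of 17 tested genes of the suppressive myeloid list, Cd274 was the 1 higher in YUMM1.7 and 5 were lower. In YUMMER1.7 3 were higher, Cd274, Wfdc17 and Arg2, and 4 were lower. Over all genes tested 5.49% and 9.32% were higher, so the 1 higher gene in YUMM1.7 lay near its share. The medians of the list were -0.16 and -0.17. Entpd1, the ectonucleotidase CD39, stood at 330, 194 and 204 CPM. Fabp5, a fatty acid carrier, stood at 272, 437 and 435 CPM.

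**Figure D4:**
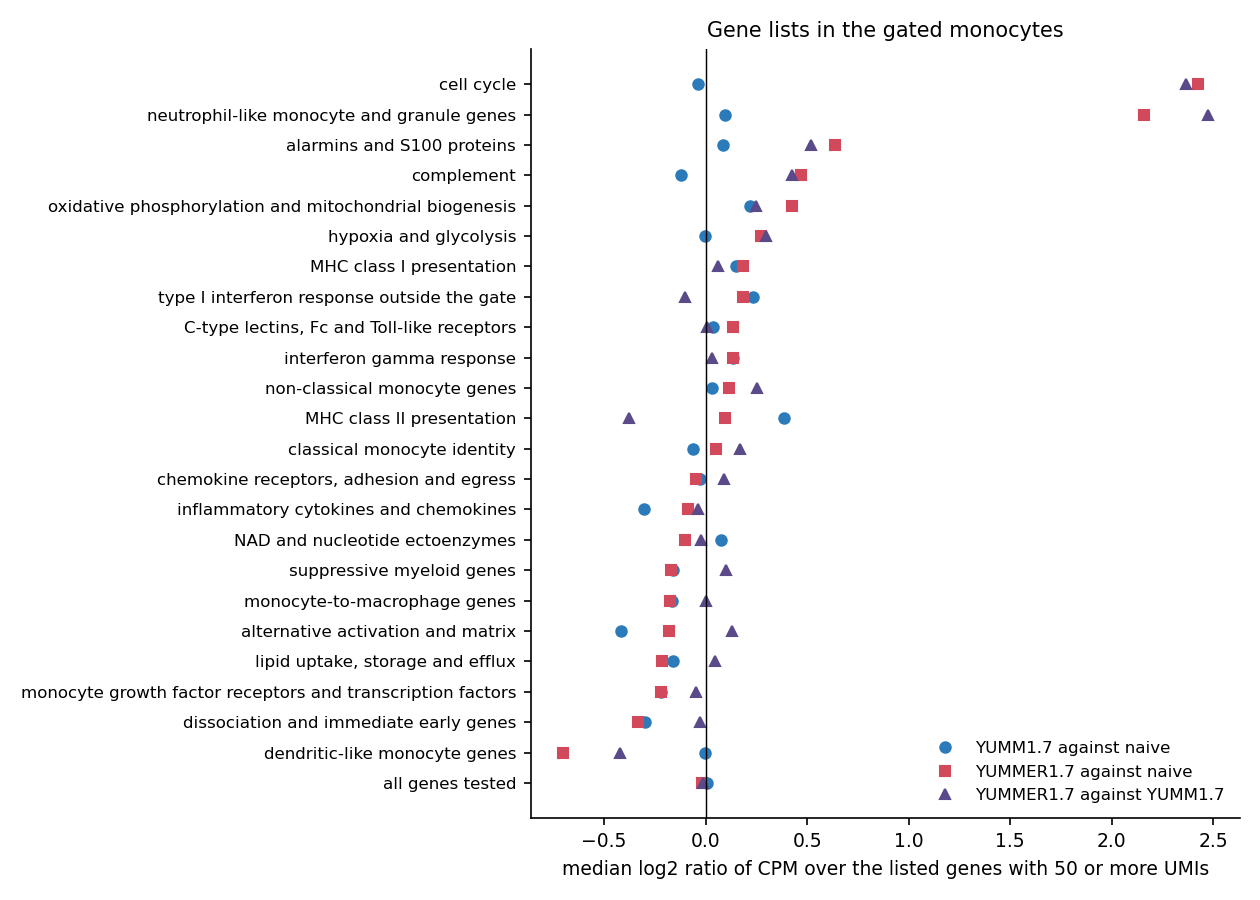
Median log2 ratio of CPM of each gene list in the gated monocytes, over its genes with 50 or more UMIs, for YUMM1.7 (circles) and YUMMER1.7 (squares) against naive and YUMMER1.7 against YUMM1.7 (triangles), beside all genes tested. The cell cycle and granule lists lie beyond 2 in the YUMMER1.7 comparisons, where most of their genes reached 50 UMIs through the YUMMER1.7 library, and the other lists lie between -0.70 and 0.64.

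Granule and acute-phase genes led the difference between the tumour libraries. By the naming rule Wfdc21, Prtn3, Hist1h2ae, Lrg1, Saa3 and Upp1 were the genes higher in YUMMER1.7 than in YUMM1.7. Wfdc21, a small secreted protein of the whey acidic protein family (chr11:83746940-83752642), stood at 3.26 CPM in naive (1.41 to 6.42), 3.35 in YUMM1.7 (2.10 to 5.08) and 105 in YUMMER1.7 (98.0 to 112), a log2 ratio of the tumour libraries of 4.97 (4.36 to 5.65). Prtn3 (chr10:79874476-79883174), whose promoter is shown above, stood at 2.85, 6.40 and 55.6 CPM, with a log2 ratio of 3.12 (2.66 to 3.61). Lcn2 (chr2:32384633-32388252) stood at 1.63, 5.19 and 67.2 CPM. Lrg1, a leucine-rich acute-phase glycoprotein, stood at 7.74, 11.4 and 61.5 CPM, and Upp1, which breaks down uridine, at 4.89, 6.71 and 31.2 CPM. In each of these 5 genes YUMMER1.7 was the highest library. The CPM of Prtn3 and Lcn2 also stood higher in YUMM1.7 than in naive, from 42 against 7 and 34 against 4 UMIs. These were too few for the count of genes past the fold. For Prtn3 the log2 ratio of YUMM1.7 to naive was 1.17 (-0.00035 to 2.57), an interval that includes no difference. Hist1h2ae, a core histone gene with near-identical copies, stood at 2.85, 5.49 and 35.0 CPM, below the 38.0, 115 and 115 CPM of B cells. Wfdc21, Prtn3, Lrg1 and Upp1 were also highest in YUMMER1.7 in cells outside the members. Interferon-high cells held 0, 4.16 and 70.0 CPM of Wfdc21 and 2.58, 1.56 and 25.9 CPM of Prtn3. Non-classical monocytes held 1.05, 1.47 and 23.3 CPM of Wfdc21 and 1.39, 17.3 and 41.1 CPM of Lrg1. Upp1 stood there at 13.2, 2.64 and 36.2 CPM. All other kept cells held 0.483, 0.945 and 19.8 CPM of Prtn3. The difference in these genes was thus not particular to the members.

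Wfdc21 was found at 3000 UMIs per cell in 1.54%, 0.496% and 14.8% of members and in 1.197%, 0.503% and 1.85% of B cells. Prtn3 was found in 1.16%, 1.65% and 11.4% of members and in none of 585, 398 and 648 B cells. Lcn2 was found in 0%, 1.49% and 11.4% of members and in 1.54%, 0% and 3.40% of B cells. S100a8 and S100a9, the calprotectin subunits that fill neutrophils, behaved differently. S100a8 stood at 48.5, 46.2 and 406 CPM in members and at 464, 53.0 and 630 CPM in B cells, and S100a9 at 101, 40.1 and 209 CPM against 608, 75.2 and 817 CPM. Neither level in members exceeded that in B cells, and the part of free RNA in S100a9 was not tested. At 3000 UMIs S100a8 was found in 29.3% of YUMMER1.7 members and in 22.8% of B cells, and the part of free RNA was not tested for it either. In the YUMMER1.7 library S100a8 stood at 630 and Prtn3 at 1.64 CPM in B cells, and at 406 and 55.6 CPM in members, so these genes were not in 1 ratio in the 2 cell types.

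The whole granule list, which holds S100a8, S100a9 and Saa3 as well, summed to 301, 326 and 1423 CPM in members, to 1244, 1478 and 2529 CPM in B cells and to 4113, 2598 and 13400 CPM in all other kept cells. Of its 16 genes 12 had 50 UMIs in YUMMER1.7 and naive together, and all 12 were past the fold. Most of them reached 50 UMIs through the YUMMER1.7 library alone, so this count supports nothing. Neutrophil marker genes other than Retnlg, which the rule sets to 0, summed to 378, 391 and 935 CPM in members. All other kept cells held 3869, 2590 and 11192 CPM of them. That sum shares S100a8 and S100a9 with the granule list, so the sums were bound to move together in part. Cxcr2 stood at 6.11, 3.20 and 2.89 CPM and Mmp9 at 2.85, 1.22 and 0.842 CPM, both lowest in YUMMER1.7. Csf3r stood at 135, 177 and 154 CPM and Il1r2 at 83.9, 123 and 162 CPM. Ly6g, a defining neutrophil gene, had 1, 0 and 3 UMIs over all members. Elane, the neutrophil elastase gene next to Prtn3, had 0, 1 and 51 UMIs, and Mpo, the myeloperoxidase gene of granulocyte precursors, had 1, 0 and 0.

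**Figure D5:**
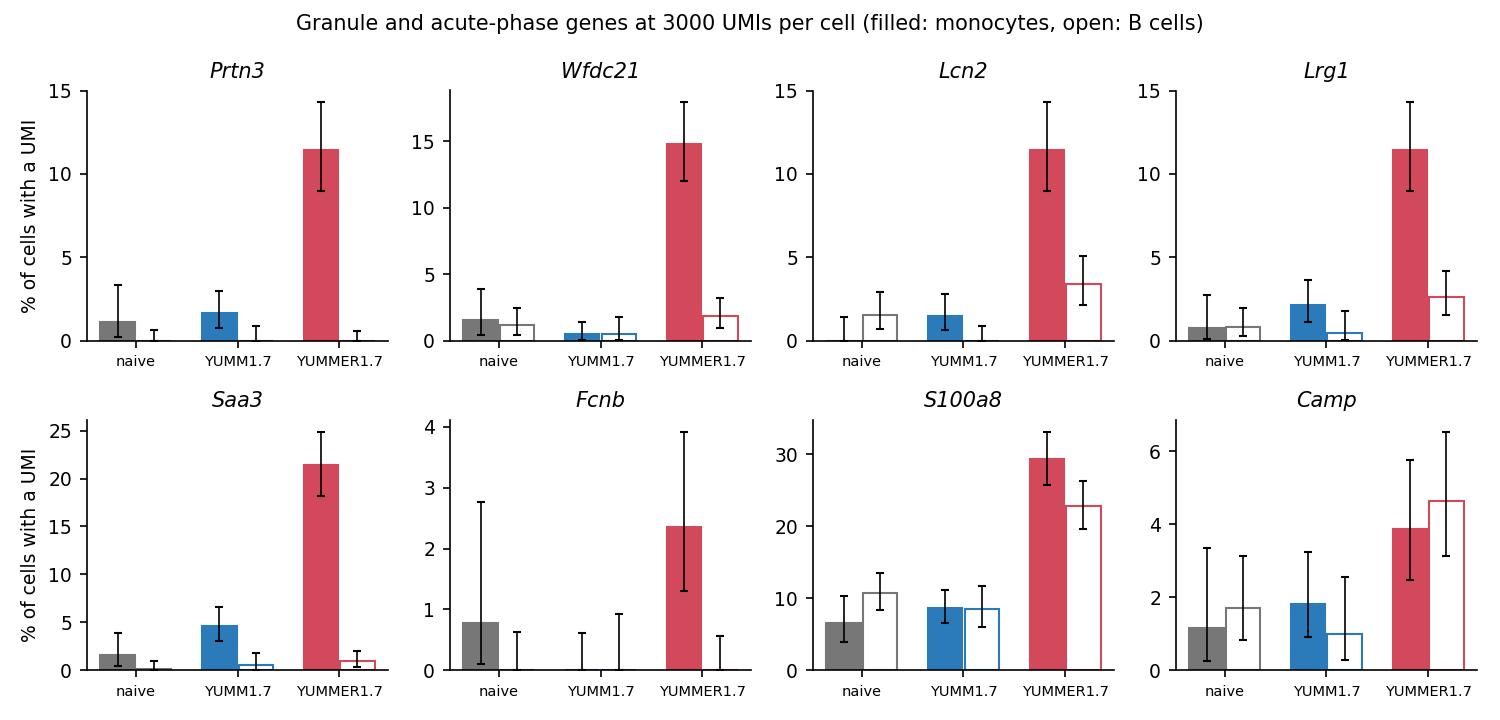
Percentage of cells with at least 1 UMI after thinning every cell to 3000 UMIs, for 8 granule and acute-phase genes, in gated monocytes (filled bars) and B cells (open bars) of each library; lines are 95% Clopper-Pearson intervals. Prtn3, Wfdc21, Lcn2, Lrg1 and Saa3 stand far above the B cells in YUMMER1.7, at 11.4% to 21.4%, and S100a8 and Camp lie closer to them.

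The granule transcripts were concentrated in a subset of YUMMER1.7 members. With 11 granule genes summed (Prtn3, Elane, Mpo, Camp, Ngp, Ltf, Wfdc21, Fcnb, Lcn2, Ctsg and Cebpe), 5 or more UMIs were found in 0 of 263 naive members, which allows a share of up to 1.14%, in 1 of 617 YUMM1.7 members and in 123 of 598 YUMMER1.7 members (20.6%, 17.4 to 24.03). By Clopper-Pearson the naive share could reach 1.39%. The limit of 5 was chosen after the values were seen. It is a raw count, members were deepest in YUMMER1.7, and no count at equal depth was made. Among kept cells that met the Ly6c2 and Ccr2 limits, 33, 43 and 131 had a Retnlg UMI and were left out by the rule. Of the 123 cells 118 lay in the low MHC class II range and 0 in the high range. Their median was 15128 UMIs, against 13053 in the other YUMMER1.7 members. Of the 319 YUMMER1.7 cells with the highest doublet scores 6 were among them.

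These 123 cells carried the markers of the label at high level. They were set against the 135 other YUMMER1.7 members at low MHC class II, although only 118 of the 123 lay in that range. H2-Aa stood at 218 and 80.8 CPM. Chil3 stood at 2327 and 1231 CPM, Vcan at 1100 and 646 CPM, Fn1 at 827 and 514 CPM and F13a1 at 775 and 467 CPM. Csf1r was found in 92.7% and 97.0% of cells, at 261 and 423 CPM. Cx3cr1, the fractalkine receptor, stood at 69.4 and 155 CPM. Saa3, which was not among the 11 genes, stood at 689 and 383 CPM and Lrg1 at 133 and 63.9 CPM. S100a8 and S100a9, also outside the 11 genes, stood at 1405 and 154 CPM and at 595 and 93.3 CPM. Ly6g and Mpo had no UMI in either set, and Kit and Cd34, genes of progenitors, stood at 2.52 and 1.13 CPM and at 0.503 and 1.13 CPM. Cxcr2, a neutrophil chemokine receptor, stood at 10.1 and 0.565 CPM and was found in 4.88% and 0.741% of cells. The set was cut from the cells' own expression, so these values describe it and test nothing.

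Genes of cell division were higher in YUMMER1.7 as well, in few cells. The cell cycle list summed to 156, 156 and 407 CPM in members and to 672, 1526 and 1549 CPM in B cells. Members with 10 or more UMIs of the list were 0, 5 and 29, and 18 of the 29 were granule-bearing cells. Mki67, the proliferation antigen Ki-67, stood at 10.2, 9.91 and 41.0 CPM, with 71 of the 341 YUMMER1.7 UMIs in 1 cell. In YUMMER1.7 it stood at 104 CPM in the granule-bearing members and at 29.4 CPM in the 135 others at low MHC class II. Without the granule-bearing or cycling cells the median of the list in YUMMER1.7 against naive was -0.04 in place of 2.42. The genes tested passed the 50-UMI limit through the YUMMER1.7 library, so neither value counts as support.

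Leaving out the granule-bearing and cycling cells changed several comparisons with YUMMER1.7. The genes higher in YUMMER1.7 than in YUMM1.7 numbered 244 in place of 459. Chil3 had log2 ratios of 0.63 to naive and 0.70 to YUMM1.7 with all members, and of -0.15 and -0.08 without these cells. F13a1 had -1.21 to naive with all members and -2.04 without them, and Fn1 -0.85 and -1.70. Wfdc21 still had 2.62 between the tumour libraries, Prtn3 1.67, Lcn2 1.64 and Saa3 1.41. The summed levels of these 4 genes were thus higher in the remaining YUMMER1.7 members than in those of YUMM1.7. In B cells Wfdc21 and Prtn3 were also higher in YUMMER1.7 than in YUMM1.7, at 22.3 and 1.64 CPM in YUMMER1.7. Saa3 was lower in YUMMER1.7 B cells, at 3.78 CPM against 7.01 CPM in YUMM1.7. The part of free RNA in the remaining ratios was not tested. Wfdc21, Prtn3 and Lcn2 were among the genes that chose the cells left out, so the smaller size of their ratios follows from that choice.

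Several S100 and alarmin genes, whose proteins are released in inflammation, were higher in YUMMER1.7. Of 13 alarmin and S100 genes 7 were higher in YUMMER1.7 than in naive and 0 in YUMM1.7, with medians of 0.64 and 0.09. S100a8 and S100a9, described above beside their B-cell levels, are among the 7. S100a11, a calcium-binding S100 protein, stood at 447, 654 and 1254 CPM, or log2 0.55 (0.45 to 0.65) and 1.49 (1.398 to 1.58). Between the tumour libraries its log2 ratio was 0.94 (0.89 to 0.99), and B cells held 279, 323 and 282 CPM. It was higher in YUMMER1.7 in the low, middle and high ranges, at 1719, 921 and 806 CPM against 787, 603 and 509 CPM in YUMM1.7. Lgals1, the lectin galectin 1, stood at 207, 219 and 347 CPM, and Anxa1, the anti-inflammatory annexin A1, at 151, 139 and 235 CPM. Without the granule-bearing and cycling cells the log2 ratio of Anxa1 to naive was 0.06.

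Complement genes had a median of -0.12 in YUMM1.7 and 0.47 in YUMMER1.7 against naive, with 1 of 10 and 3 of 11 tested genes higher. Over all genes tested 5.49% and 9.32% were higher. C5ar1, the receptor for the fragment C5a, stood at 31.4, 23.9 and 59.0 CPM, and Cfb, factor B of the alternative pathway, at 72.9, 98.2 and 132 CPM. Glycolysis and oxidative phosphorylation genes had medians of 0.28 and 0.42 in YUMMER1.7. Gapdh, a glycolytic enzyme, stood at 461, 545 and 841 CPM. The oxidative phosphorylation list summed to 4637, 5241 and 6181 CPM in members and to 3399, 4673 and 4601 CPM in B cells, and the glycolysis list to 2414, 2487 and 3206 CPM and to 1533, 2049 and 2185 CPM. Both sums were thus higher in B cells of the tumour libraries as well.

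The 6 genes named as lower in YUMMER1.7 than in YUMM1.7 were receptors, lipid genes and others of mixed function. Flt1, the receptor VEGFR1 that monocytes use to sense vascular growth factors (chr5:147561604-147726011), stood at 81.1, 34.6 and 12.03 CPM, and the log2 ratio of the tumour libraries was -1.52 (-1.88 to -1.18). It was lower in YUMMER1.7 in the low, middle and high ranges, by log2 -1.99, -1.32 and -1.18. Hpgd, which inactivates prostaglandins, stood at 110, 122 and 54.6 CPM, or log2 -1.16 (-1.33 to -0.996). Apoe, the lipid carrier apolipoprotein E, stood at 757, 684 and 374 CPM in members and at 384, 210 and 461 CPM in B cells. Cd177, a surface glycoprotein of neutrophils and some monocytes, stood at 44.4, 42.9 and 20.5 CPM, Abca9, a transporter, at 55.0, 59.6 and 27.9 CPM, and Hivep3, a zinc-finger factor, at 53.8, 67.7 and 36.5 CPM. In Hpgd, Abca9 and Cd177 naive and YUMM1.7 lay together and YUMMER1.7 below, while Flt1 was lower in each tumour arm than in naive.

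Genes of dendritic-like monocytes had a median of -0.0041 in YUMM1.7 and -0.70 in YUMMER1.7 against naive, with 5 higher and 3 lower of 13, and 1 higher and 7 lower of 12. Clec10a, a lectin of dendritic cells and some monocytes, stood at 49.7, 49.6 and 29.5 CPM, and Mgl2, a related lectin, at 13.4, 12.4 and 6.02 CPM. Without the highest 2% of cells for each gene the YUMMER1.7 median was 0.21, with 8237 genes tested and a median of all genes of 0.07. The cause of the change was not tested. Ifitm1, an antiviral membrane protein on that list, stood at 12.2, 23.8 and 118 CPM in members and at 12.7, 28.3 and 98.6 CPM in B cells. Cd38, a surface NAD hydrolase, was at 18.7, 19.98 and 60.9 CPM and was found at 3000 UMIs in 2.70%, 4.13% and 12.3% of members. B cells, which express Cd38, held 170 to 176 CPM, with no such difference between libraries.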

How the data were processed

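Single cell 3' RNA counts of 3 bead-enriched lymph node libraries were used. The authors deposited whole-number UMI counts per gene and barcode, made with Cell Ranger 8.0.1 on mm10, per the submitters' processing notes and the file headers. No cell annotation or doublet call was used. Members and gene lists were chosen with earlier results of these data known.

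From the counts, cells were filtered and gated as described above, UMIs were summed per library and scaled to CPM, and shares, levels and ratios were given 95% Clopper-Pearson, exact Poisson and exact conditional binomial intervals (Python 3.11.15, numpy 2.4.6, scipy 1.17.1, pandas 2.3.3). UMIs of a library share cells, so these intervals and the limit that a count of 0 allows (3 counts) cover counting error only. The named genes had to reach 50 UMIs, and 30 CPM where they were highest, and were the 8 highest and 8 lowest in the weaker tumour library against naive and 6 each way between tumour libraries, by the interval bound nearest 0. Their CPM had to be at least 0.5 times that of other kept cells, and immunoglobulin, T cell receptor, mitochondrial, ribosomal, haemoglobin, Xist, Tsix, Y-linked and rule genes and unnamed gene models were left out. The rule also allowed up to 4 genes of each list, and the label and rule genes and 6 over-dispersed genes. All other genes given, from lists, ranges and subsets, were chosen after their values were seen. Doublets stayed in the main results. Scrublet (in scanpy 1.11.5) served an alternative, as did TMM factors (edgeR 4.0.16, R 4.3.3). Gene positions are from GENCODE vM21 (GRCm38). The ratio and interval code was tested on simulated data. Libraries depleted of CD45+ cells were left out for lack of gated cells. Some genes are not reported here.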

Additional observations from a re-analysis of the deposited data

How the results depend on the processing

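No paired analysis was possible because each arm was 1 library. Thinned to 3000 UMIs, the share folds were 2.51, 2.34 and 0.934 (YUMM1.7 and YUMMER1.7 against naive, YUMMER1.7 against YUMM1.7), and over kept cells without lymphocyte genes 2.83 for YUMM1.7. Counts of higher and lower genes, in the same order of comparisons, were 322, 407, 468, 579, 286 and 315 when thinned, 1128, 1534, 1484, 1824, 1111 and 1076 with a minimum of 10 UMIs, 154, 265, 377, 408, 170 and 117 with 200 UMIs, and 102, 205, 263, 283, 155 and 75 at 2-fold. Without the highest 2% of cells for each gene, an alternative added after seeing the data, 582 genes were lower in YUMMER1.7 than in naive and 246 lower than in YUMM1.7, and the higher genes were 57.6%, 66.7% and 67.0% of those past the fold in place of 43.1%, 49.3% and 54.2%. Without granule-bearing or cycling cells, also added after seeing the data, 244 genes were higher in YUMMER1.7 than in YUMM1.7, and the share of higher genes was 42.2%.

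These list medians turned sign: dendritic-like in YUMMER1.7 against naive 0.21 without the highest cells; inflammatory in YUMM1.7 0.18 when thinned, 0.024 with 200 UMIs and 0.10 without the highest cells; cell cycle in YUMMER1.7 -0.043 without granule-bearing or cycling cells. Among single genes, thinning gave Asic2 0.75 and Il22ra2 0.17 between tumour libraries, Bnip3 -0.91 in YUMM1.7, Cd36 0.17 in YUMM1.7 and 0.48 in YUMMER1.7 against naive, and Serpina3g -0.36 in YUMMER1.7. Asic2 in YUMM1.7 was 0.87 with the stricter cell filter and 0.60 without C1qa UMIs, where S100a9 was 0.24. Gzmc between tumour libraries was 0.15 with at least 5 Ly6c2 UMIs. Elane in YUMMER1.7 was -0.34 without the highest cells. Without granule-bearing or cycling cells the YUMMER1.7 log2 ratios to naive were Chil3 -0.15, Elane -1.91, S100a9 -0.20, Slpi -0.38 and Top2a -0.067, and to YUMM1.7 Ccl2 -0.045, Chil3 -0.083, Elane -0.51 and Mmp8 -0.040. The cause of these shifts was not tested.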
